A study of Mus musculus with 48 samples.

Results

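Glutathione S-transferase genes were followed through 16 conditions of cultured mouse striatal progenitor cells. The 10 members were taken by symbol from the 18178 genes with a symbol in the table of RNA levels. They were Gstm1, Gstm2, Gstm4 and Gstm5 of the mu class, Gsta4 of the alpha class, Gstp1 of the pi class, Gstt1 and Gstt2 of the theta class, Gsto1 of the omega class and the membrane-bound Mgst1. The list was drawn up with a result of these data in view, a lower level of Gstm1 under 3 of the compounds. The members were thus chosen by measured values of Gstm1 under cyproheptadine, loxapine and pizotifen, and those values are given as a description, without a test. A lower level is read against a control, so the vehicle values of Gstm1 may have entered that choice as well. Tests of Gstm1 against the same vehicle samples are then not independent of the choice.

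The samples came from a pair of conditionally immortalized cell lines labelled C57BL/6, the wild-type line STHdhQ7 and the line STHdhQ111, which is homozygous for mutant, polyglutamine-expanded huntingtin. Huntingtin is the protein altered in Huntington's disease. Every culture, controls included, was kept in medium without serum for 24 hours, with DMSO vehicle or with a compound. The study dissolved its compounds in DMSO or water, and its main text does not say which for each. Some compounds may therefore differ from the vehicle control in solvent. The STHdhQ111 cells received vehicle or 1 of 14 compounds that the study had selected as protective, and the STHdhQ7 cells received vehicle only. Each genotype was a single line, so a difference between genotypes cannot be told apart from a difference between lines. Cyproheptadine at 10 µM, loxapine at 10 µM and pizotifen at 5 µM made up the study's Group A, and diacylglycerol kinase inhibitor II (DKI) at 10 µM and meclizine at 10 µM made up its Group B. In the study, these compounds clustered together in the RNA data, which include these samples, and metabolite data separated them into Groups A and B. Its discussion describes the groups as hard to tell apart in their RNA profiles. The other compounds were sodium butyrate at 1 mM, 4-deoxypyridoxine (DOP) at 4 mM, cysteamine at 250 µM, selisistat at 10 µM, fingolimod phosphate at 250 nM, trichostatin A at 10 nM, nortriptyline at 1 nM, and nicotinamide and haloperidol at 0.5 nM each.

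Each condition had 3 samples, 48 in all, collected over 3 days and at 3 labelled times. The labels give no separate origin for the replicates, so p-values measure the spread between samples of the same condition. For Group A and Group B the compound means were averaged. The spread between compounds is thus not in a group's SE or p-value. Values are the authors' normalized abundances on a log2 scale, so a difference of 1 is a 2-fold change. Read counts could not be recovered from them, and the depth of each sample is unknown. Linear sums per sample differed by at most 1.11 times, and replicates correlated at 0.999 to 0.9998 across genes. Marker lists were read for the labelled cell type and for others. Of 7 neural progenitor genes, 5 averaged at least 5 on the log2 scale over all samples, as did 5 of 7 mesenchymal genes, among them Col1a1 (14.52), while Lum and Thy1 were near the floor of the table (-0.38 and -0.17). Of 6 striatal lineage genes in the table, 3 averaged at least 5. Among 5 neuronal genes, Rbfox3, Snap25 and Syt1 were near the floor (-2.13, -0.82 and -0.62), Tubb3 was at 4.72 and Map2 at 8.37. Among 5 astrocyte genes, Gfap was near the floor (-0.95), while Slc1a2 was at 4.95 and Slc1a3 at 7.11. Among 6 microglial genes, Cx3cr1, P2ry12, Aif1 and Itgam averaged under 1, with Aif1 at -2.18, while Csf1r was at 2.01 and Tmem119 at 7.63. Of the 4 endothelial genes 1 averaged at least 5, and of 2 oligodendrocyte genes none did. The lines differed in these genes. Nes, Sox2, Pax6 and Notch1 of the progenitor list were higher in STHdhQ7 than in the STHdhQ111 vehicle control by more than 1 and Sox9 was lower, with Nes at 10.95 and 4.96, Sox2 at 8.91 and 4.81, and Sox9 at 7.71 and 9.55, while Vim was at 15.6 and 15.42.

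Glutathione S-transferases join the tripeptide glutathione to reactive, electrophilic compounds, which makes these more soluble and ready for export from the cell. The classes differ in what they handle best. Gsta4 is efficient with 4-hydroxynonenal, a product of lipid peroxidation, Gsto1 has a cysteine in its active site and reduces rather than conjugates many of its substrates, and Mgst1 sits in membranes, where it also reduces lipid peroxides. Several transferase genes are textbook targets of the transcription factor NRF2, which binds antioxidant response elements.

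The 4 genes Gstm1, Gstm5, Gsto1 and Mgst1, whose levels moved in different directions, are shown with the 150 bases before a RefSeq start (assembly GRCm38.p6). This lets the starts shown be compared. Gstm1 and Mgst1 each have a further RefSeq start that is not shown. Each run reads 5′ to 3′ on the strand of the gene, and capitals mark a match to the antioxidant response element core, TGACNNNGC on either strand.
Gstm1, minus strand, chr3:108017974-108018123: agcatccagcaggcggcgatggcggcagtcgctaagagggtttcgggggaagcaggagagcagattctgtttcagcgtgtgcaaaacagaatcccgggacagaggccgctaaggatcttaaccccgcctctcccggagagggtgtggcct
Gstm5, plus strand, chr3:107895704-107895853: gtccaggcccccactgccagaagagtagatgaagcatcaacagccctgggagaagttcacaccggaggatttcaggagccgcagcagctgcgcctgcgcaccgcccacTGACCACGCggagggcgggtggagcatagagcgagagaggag
Gsto1, plus strand, chr19:47854823-47854972: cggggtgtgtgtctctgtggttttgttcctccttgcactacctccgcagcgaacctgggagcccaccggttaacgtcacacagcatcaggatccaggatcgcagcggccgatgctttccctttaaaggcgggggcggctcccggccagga
Mgst1, plus strand, chr6:138140377-138140526: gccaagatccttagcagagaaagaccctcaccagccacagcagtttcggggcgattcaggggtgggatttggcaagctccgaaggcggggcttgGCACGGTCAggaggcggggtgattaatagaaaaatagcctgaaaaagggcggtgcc

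RefSeq promoter windows of 300 bases were at hand for 8 of the 10 members, in 11 windows, and not for Gsta4 and Gstt2. The core motif occurred in 2 of those 8 members, Gstm5 and Mgst1, and in 12.4% of the 32851 promoter windows of the genome. Members were counted by gene, with a match in any window, and the genome by window, so these shares are not alike. Another RefSeq window of Mgst1 held no match. The CARE motif TGATGNAA, a composite element bound by ATF4, was found in none of the 8 and in 3.97% of all windows. In Gstm1 and Gsto1, the members with the largest falls and rises under the Group A and Group B compounds, neither string of letters was present in the windows searched.

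The mu class genes lie together on chromosome 3. On GRCm38, Gstm1 (ENSMUSG00000058135) spans 108012255 to 108017973 and Gstm2 (ENSMUSG00000040562) spans 107981702 to 107986453, both on the minus strand, while Gstm5 (ENSMUSG00000004032) spans 107895821 to 107898686 on the plus strand. Gsto1 (ENSMUSG00000025068, chromosome 19, 47854970 to 47864790) and Mgst1 (ENSMUSG00000008540, chromosome 6, 138140316 to 138156755) lie apart from them. The Mgst1 run shown above lies within this span of Mgst1. Its motif match is therefore upstream of the RefSeq start but not of the gene start given here. Reads were single 50-base sequences. Of the 50-base strings in the transcripts of Gstm1, 18.9% also occur in another gene, mainly Gstm2-ps1 (14.1%) and Gstm3 (8.16%), and 0.655% of those of Gstm2 occur in Gstm1. For Gstp1 the share was 33.7%, all of it shared with Gstp2. These members' levels are uncertain to that extent, since the counting could divide such reads between copies. Gstm3 and Gstp2 themselves averaged -1.91 and 2.7. Gstm5 overlaps 4933431E20Rik and Gsto1 overlaps Cfap43, in both cases on the opposite strand. The libraries kept strand, but whether the counting used it is not given in the sources used here.

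Per kilobase of exon, Gstp1 was the most abundant transferase of the 10 in the STHdhQ111 vehicle control, at 10.74 ± 0.11 on the log2 scale (SD, n = 3). Gstm1 followed at 9.72 ± 0.12, Gsto1 at 9.19 ± 0.078 and Gstm5 at 8.54 ± 0.11. Mgst1 (7.16 ± 0.12), Gsta4 (7.04 ± 0.081) and Gstm2 (7.02 ± 0.063) formed a lower group in which neighbours differed by no more than their spread, and Gstt1 was at 2.53 ± 0.073. Gstm4 and Gstt2 were at the floor. Without division by length, Gstm4 ranged from -1.97 to -1.96 and Gstt2 from -0.48 to -0.36 over all 48 samples. The 10083 genes of the table with a mean under 0 had a median SD of 0.0051 over the samples, so differences in genes this low, Gstm4 and Gstt2 included, were not detectable in these values. Tests were run on genes with a mean of at least 1, which kept 8 of the 10 members among 13409 genes.

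All further levels are normalized log2 abundances without division by length. Differences were tested with limma over all genes, and a gene was called at a Benjamini-Hochberg adjusted p under 0.05. In single compounds against the STHdhQ111 vehicle control, 38 of 109 member and compound pairs were called, 33 higher and 5 lower, against 17% of pairs over all genes. The Gstm1 pairs under the 3 Group A compounds carry no test here and are left out of these counts. The heat map of fold changes shows which members each compound moved, with the columns in an order set by hand.

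**Figure D1:**
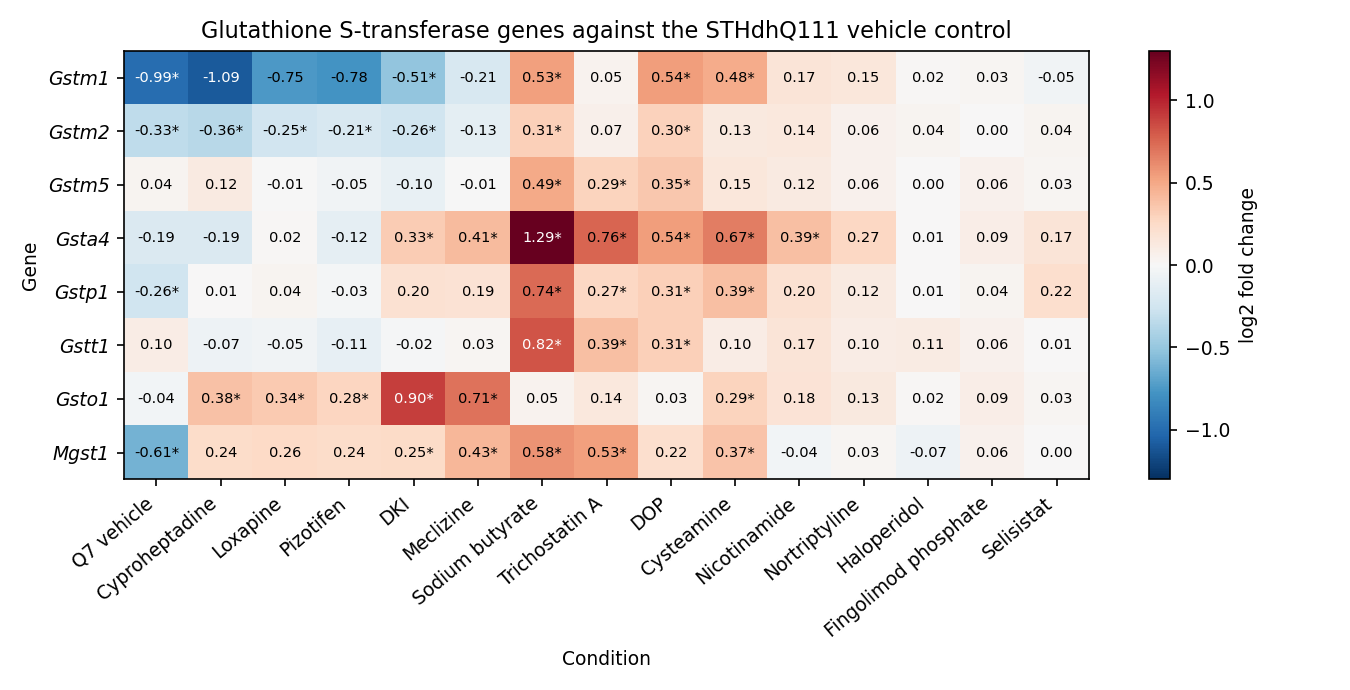
Log2 fold change of the 8 transferase genes tested (rows) in STHdhQ7 vehicle and under each compound (columns) against the STHdhQ111 vehicle control, 3 samples each. An asterisk marks an adjusted p under 0.05 (limma), not given for Gstm1 under cyproheptadine, loxapine and pizotifen. Gstm1 ran from -1.09 under cyproheptadine to 0.54 under DOP, Gsto1 was highest under DKI (0.90), and sodium butyrate raised every gene shown except Gsto1.

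To see how the lines differed without a compound, STHdhQ7 was compared with STHdhQ111, both with vehicle. Of the 8 members tested, 4 were lower in STHdhQ7 and none was higher, where 55.8% of all genes were called (26.6% lower). Gstm1 measured 8.93, 9.47 and 9.48 in STHdhQ7 and 10.2, 10.23 and 10.41 in STHdhQ111. The lowest STHdhQ111 sample stood above the highest STHdhQ7 sample. Its log2 fold change was -0.99 (SE 0.12, adjusted p = 2.1e-09), which is 0.504 times the STHdhQ111 level. The STHdhQ111 vehicle values of Gstm1 may have entered the choice of the list, so this test is not independent of it. In bulk RNA, fewer cells with a transcript and less of it per cell cannot be told apart.

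Mgst1 was lower in STHdhQ7 as well, at 7.52, 7.65 and 7.51 against 8.06, 8.14 and 8.3. Its samples did not overlap between the lines, and the log2 fold change was -0.61 (SE 0.099, adjusted p = 1.9e-06). Gstm2 differed by -0.33 (SE 0.074, adjusted p = 0.00027) and Gstp1 by -0.26 (SE 0.086, adjusted p = 0.011), in both cases without overlap between the samples of the lines. The Gstp1 call was lost without STHdhQ111 vehicle replicate 3. Gsta4, Gstm5, Gstt1 and Gsto1 were not called, with log2 fold changes between -0.19 and 0.1. Several marker genes differed between the lines as well. Of the 7 progenitor genes, 4 were higher in STHdhQ7 by more than 1 and 1 was lower. The log2 of their summed linear level spanned 15.61 to 15.77 in STHdhQ7 and 15.42 to 15.54 in STHdhQ111. Vim alone averaged 15.6 and 15.42, so that sum says little of lower genes such as Nes and Sox2. Of the 7 mesenchymal genes, Col1a2 and Pdgfra were lower by more than 1 and none was higher. The log2 of the sum over the list, most of it Col1a1 (14.65 and 14.63), spanned 14.51 to 15.02 against 15.04 to 15.23. Tubb3 of the neuronal list and Tmem119 of the microglial list were higher by more than 1. The part of these genes in the transferase differences was not tested.

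Under the Group A compounds, Gstm1 had the lowest levels of any compound. It measured 9.17, 9.25 and 9.16 with cyproheptadine, 9.55, 9.54 and 9.49 with loxapine, and 9.41, 9.64 and 9.44 with pizotifen, against 10.2, 10.23 and 10.41 with vehicle. All 9 Group A samples lay below all vehicle samples, and they spanned 9.16 to 9.64, where the STHdhQ7 samples spanned 8.93 to 9.48. The log2 fold change was -0.88 for the group (SE 0.094), and -1.09, -0.75 and -0.78 for cyproheptadine, loxapine and pizotifen (SE 0.12 each). These values chose the list and are a description.

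The neighbouring Gstm2 moved the same way with a smaller size. It measured 7.35, 7.4 and 7.47 with cyproheptadine, 7.66, 7.6 and 7.29 with loxapine, and 7.54, 7.56 and 7.56 with pizotifen, against 7.75, 7.72 and 7.84 with vehicle. No Group A sample reached the lowest vehicle sample, although loxapine replicate 3 stood well below its other replicates. The log2 fold change for Group A was -0.27 (SE 0.061, adjusted p = 0.00051). For single compounds, it was -0.36 with cyproheptadine (SE 0.075, adjusted p = 0.00024), -0.25 with loxapine (SE 0.074, adjusted p = 0.012) and -0.21 with pizotifen (SE 0.074, adjusted p = 0.041). The loxapine call was lost without vehicle replicate 3 or loxapine replicate 3. The pizotifen call was lost without any one of the 6 samples compared. The other mu class gene with a measurable level, Gstm5, was not called in Group A, at 0.02 (95% interval -0.08 to 0.12).

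Without Gstm1, 3 of the other 7 members tested were called in Group A, 2 higher and 1 lower, against 32.8% of all genes. The members that rose were Gsto1 and Mgst1. Gsto1 measured 10.55, 10.58 and 10.64 with cyproheptadine, 10.52, 10.57 and 10.56 with loxapine, and 10.47, 10.49 and 10.49 with pizotifen. All of these exceeded the vehicle samples, at 10.15, 10.17 and 10.3. The log2 fold change was 0.33 (SE 0.054, adjusted p = 8.8e-06). Mgst1 rose by 0.25 (SE 0.081, adjusted p = 0.016), with overlap between the samples. That call was lost without vehicle replicate 1 and without vehicle replicate 2, and no single Group A compound gave a called Mgst1 change against vehicle. Cyproheptadine, loxapine and pizotifen each had 2 of these 7 called, Gsto1 higher and Gstm2 lower, where 35.6%, 21.9% and 17.9% of all genes were called.

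**Figure D2:**
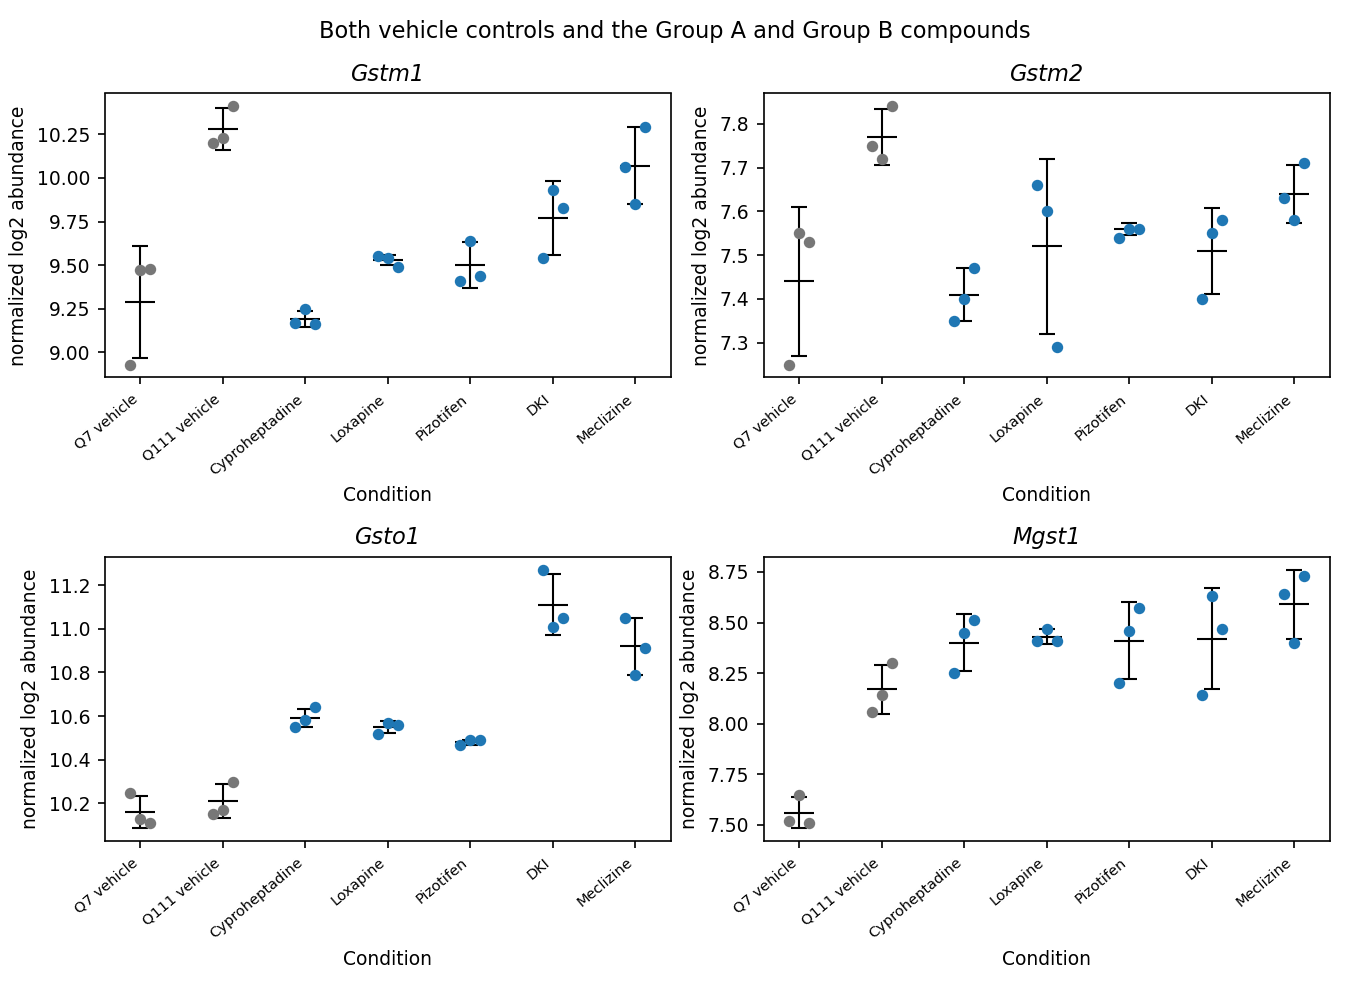
Normalized log2 abundance of Gstm1, Gstm2, Gsto1 and Mgst1 (vertical axes, which do not start at 0) in each sample (points) of both vehicle controls (grey) and of the Group A and Group B compounds (blue). Bars give the mean and SD of 3 samples. Gstm1 lies at 9.16 to 9.64 in Group A against 10.2 to 10.41 in the STHdhQ111 vehicle control, while Gsto1 is highest with DKI and meclizine.

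Group B moved more of the members. Of the 8 tested, 6 were called, 4 higher and 2 lower, against 41% of all genes. Gsto1 gave the largest change of the 8 in this comparison. It measured 11.27, 11.01 and 11.05 with DKI and 11.05, 10.79 and 10.91 with meclizine, and every one of these samples exceeded all others of the 48 outside Group B. The log2 fold change was 0.81 for the group (SE 0.058, adjusted p = 6.2e-14), 0.90 with DKI (SE 0.067, adjusted p = 1.8e-13) and 0.71 with meclizine (SE 0.067, adjusted p = 2.2e-10).

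Gsta4, the transferase of lipid aldehydes, measured 7.62, 7.72 and 7.78 with DKI and 7.93, 7.63 and 7.81 with meclizine, above the vehicle samples at 7.38, 7.3 and 7.46. Its log2 fold change was 0.37 (SE 0.097, adjusted p = 0.0019). Mgst1 rose by 0.34 (SE 0.086, adjusted p = 0.0016) and Gstp1 by 0.19 (SE 0.075, adjusted p = 0.034), both with overlapping samples. The Gstp1 call was lost when any of 6 samples was left out, namely vehicle replicate 1 or 2, DKI replicate 1 or 3, or meclizine replicate 1 or 3.

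Gstm1 and Gstm2 were lower in Group B. Gstm1 measured 9.54, 9.93 and 9.83 with DKI, below every vehicle sample, and 10.06, 9.85 and 10.29 with meclizine, which overlapped the vehicle. The log2 fold change was -0.36 for the group (SE 0.1, adjusted p = 0.0032). With DKI alone it was -0.51 (SE 0.12, adjusted p = 0.00042), and with meclizine alone it was -0.21, which was not called. The vehicle values of Gstm1 may have entered the choice of the list, so these tests are not independent of it. Gstm2 differed by -0.19 (SE 0.065, adjusted p = 0.015). Both group calls were lost without vehicle replicate 3, which was the highest of the vehicle samples for each gene. DKI had 5 called members and meclizine 3, where 42.3% and 26.8% of all genes were called. With DKI, the Mgst1 call was lost without vehicle replicate 1 or 2, or DKI replicate 2 or 3. The Gsta4 call with DKI was lost without vehicle replicate 2 or DKI replicate 3, and the Gstm2 call without DKI replicate 1. With meclizine, the Gsta4 call was lost without meclizine replicate 1. The 3 called with meclizine were all higher, as were 13.1% of all genes.

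The groups were also compared directly, in a test that does not use the vehicle samples. Its SE and p-values leave out the spread between compounds within each group, so they concern these compounds only. Without Gstm1, 3 of the other 7 members were lower in Group A than in Group B and none was higher, against 41.3% of all genes (21.4% lower). Gsto1 differed by -0.47 (SE 0.043, adjusted p = 2.1e-11) and Gsta4 by -0.47 (SE 0.072, adjusted p = 1.3e-06), both with no overlap between the 9 and the 6 samples. Gstp1 differed by -0.18 (SE 0.055, adjusted p = 0.0068). Gstm1, given as a description, differed by -0.51 (SE 0.074), with means of 9.41 and 9.92. For Gstm2 the difference was -0.08 (95% interval -0.18 to 0.01) and for Mgst1 it was -0.09 (95% interval -0.22 to 0.04), neither called. The study's view that the groups are nearly alike in RNA concerns whole profiles, a different measure from these tests of single genes.

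DKI and meclizine were given at the same dose. None of the 8 members was called between them by limma, against 8.11% of all genes, and 2 had an unadjusted p under 0.05. Those 2 were Gstm1, 0.3 lower with DKI on the log2 scale (log2 fold change -0.3, 95% interval -0.54 to -0.06, adjusted p = 0.11), and Gsto1, 0.2 higher (95% interval 0.06 to 0.33, adjusted p = 0.066). For the other members, the intervals ran from -0.38 at the lowest to 0.18 at the highest.

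Sodium butyrate inhibits histone deacetylases, and it raised more members than any other compound. Of the 8, 7 were higher and none was lower, against 37.5% of all genes (19.6% higher). The median log2 fold change of the 8 was 0.55, against 0.02 over all genes tested. Gsta4 measured 8.71, 8.83 and 8.48, all above every other sample of the 48. Its log2 fold change of 1.29 (SE 0.11, adjusted p = 2.2e-11), a ratio of 2.45, was the largest among all pairs of a member and a compound.

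The low Gstt1, a theta class enzyme known for small halogenated substrates, measured 3.96, 4.11 and 3.82 with sodium butyrate against 3.07, 3.14 and 3.22 with vehicle. No other condition reached these values, and the log2 fold change was 0.82 (SE 0.07, adjusted p = 1.7e-11). Gstp1 rose by 0.74 (SE 0.086, adjusted p = 2.1e-08), Mgst1 by 0.58 (SE 0.099, adjusted p = 1.5e-05), Gstm1 by 0.53 (SE 0.12, adjusted p = 0.00041), Gstm5 by 0.49 (SE 0.061, adjusted p = 8.2e-08) and Gstm2 by 0.31 (SE 0.074, adjusted p = 0.00096). Each had no overlap between the butyrate and the vehicle samples. The exception was Gsto1, at 10.28, 10.32 and 10.16, whose log2 fold change of 0.05 was not called.

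Trichostatin A, a structurally unrelated deacetylase inhibitor given at a far lower dose, raised 5 of the 8 members and lowered none, against 13.1% of all genes (6.41% higher). Gsta4 led again, at 8.39, 8.02 and 8.01, with a log2 fold change of 0.76 (SE 0.11, adjusted p = 9.3e-06). Mgst1 rose by 0.53 (SE 0.099, adjusted p = 0.00029), Gstt1 by 0.39 (SE 0.07, adjusted p = 0.00021), Gstm5 by 0.29 (SE 0.061, adjusted p = 0.0011) and Gstp1 by 0.27 (SE 0.086, adjusted p = 0.033). The Gstp1 call was lost without vehicle replicate 1, vehicle replicate 2 or trichostatin A replicate 1. Gstm1, at 10.43, 10.2 and 10.37, was 0.05 above vehicle and Gstm2 was 0.07 above it, neither called. With sodium butyrate the corresponding values were 0.53 and 0.31. The doses differed, so these values are given side by side without a test.

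**Figure D3:**
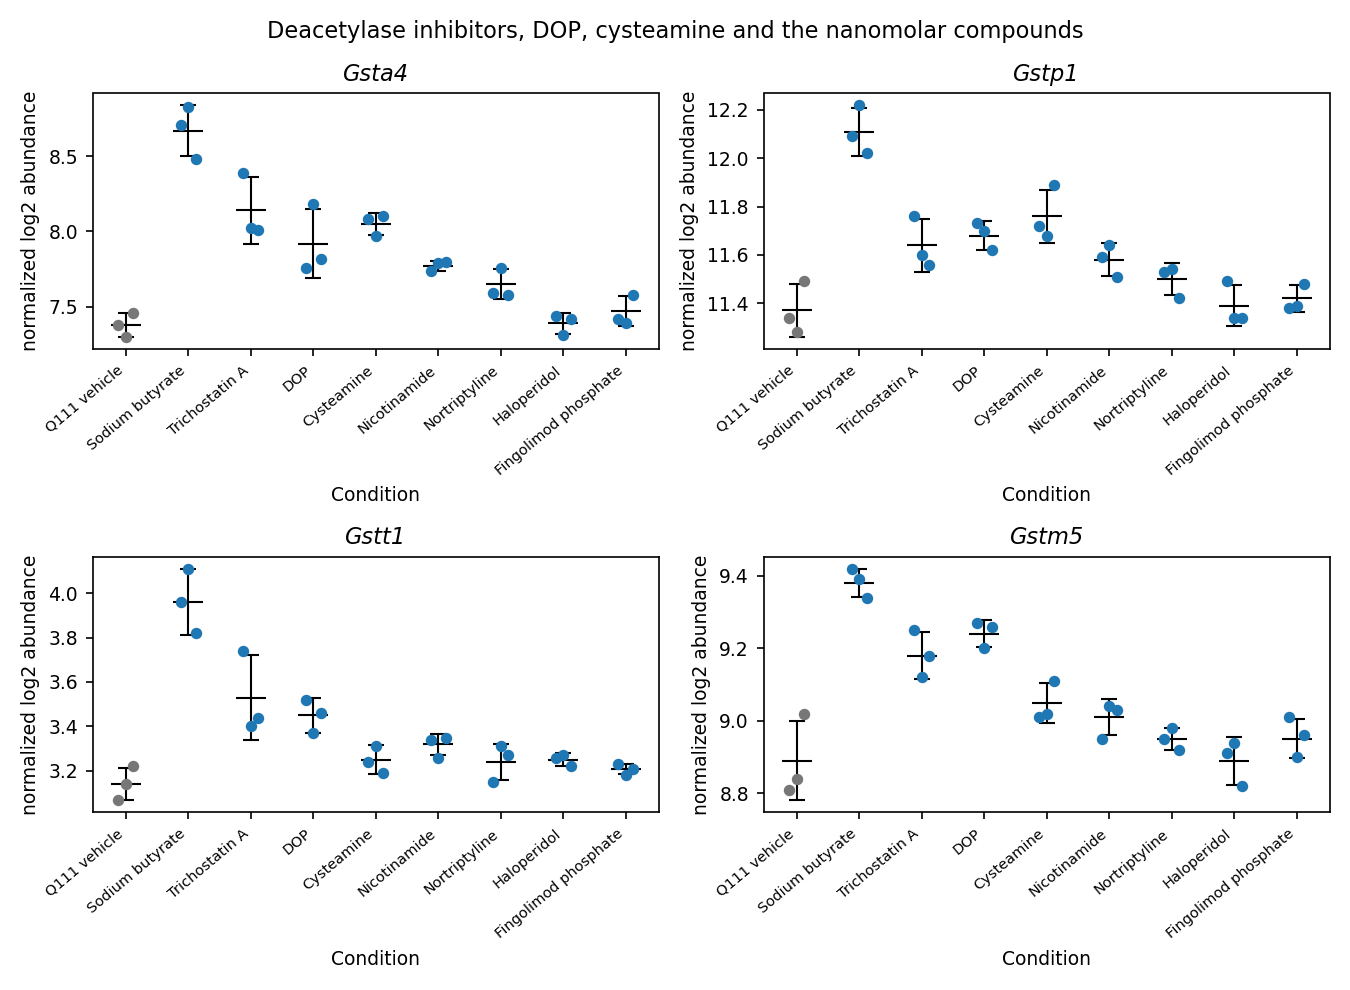
Normalized log2 abundance of Gsta4, Gstp1, Gstt1 and Gstm5 (vertical axes, which do not start at 0) in each sample (points) of the STHdhQ111 vehicle control (grey) and of 8 compounds (blue). Bars give the mean and SD of 3 samples. Sodium butyrate is highest for every gene shown, with Gsta4 at 8.48 to 8.83 against 7.3 to 7.46 with vehicle.

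DOP, an antagonist of vitamin B6, raised 6 of the 8 members and lowered none, against 20.1% of all genes (8.93% higher). Gstm1 measured 10.87, 10.84 and 10.74, above all vehicle samples (log2 fold change 0.54, SE 0.12, adjusted p = 0.00097). Gsta4 rose by 0.54 (SE 0.11, adjusted p = 0.00061), Gstm5 by 0.35 (SE 0.061, adjusted p = 9.9e-05) and Gstm2 by 0.30 (SE 0.074, adjusted p = 0.0039). Gstt1 rose by 0.31 (SE 0.07, adjusted p = 0.0016), and Gstp1 by 0.31 (SE 0.086, adjusted p = 0.0089), a call lost without vehicle replicate 2.

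Cysteamine, an aminothiol, raised 5 of the 8 and lowered none, against 7.83% of all genes (2.33% higher). Gsta4 measured 8.08, 7.97 and 8.1 (log2 fold change 0.67, SE 0.11, adjusted p = 0.00022). Gstm1 was at 10.76, 10.74 and 10.78, a rise of 0.48 (SE 0.12, adjusted p = 0.0082). Gstp1 rose by 0.39 (SE 0.086, adjusted p = 0.0044), Mgst1 by 0.37 (SE 0.099, adjusted p = 0.018) and Gsto1 by 0.29 (SE 0.067, adjusted p = 0.0056). Without cysteamine replicate 3, the calls of Gstm1, Gstp1, Gsto1 and Mgst1 were lost. Those of Gstm1 and Mgst1 were also lost without vehicle replicate 1 and without vehicle replicate 2, and that of Gsto1 without vehicle replicate 1.

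Vehicle and most compounds shared collection days but not the time of collection on those days. For 4 of the compounds above, the compounds nicotinamide and nortriptyline, or haloperidol and fingolimod phosphate, were collected on the same days and at the same times, so they were used as an alternative control. This choice was made after the values were seen. Each such control was averaged over 6 samples, where vehicle had 3, so comparisons with it had a smaller SE. Against nicotinamide and nortriptyline, sodium butyrate had 7 members called, all higher, with 30.8% of all genes called (17% higher), and Gsta4 differed by 0.96 (SE 0.096, adjusted p = 7.1e-10). Against haloperidol and fingolimod phosphate, trichostatin A had 5 called, all higher, with 14.4% of all genes called (8.08% higher).

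For DOP, 3 members were called against nicotinamide and nortriptyline, with 10.6% of all genes called (5.48% higher). They were Gstm1 at 0.38 (SE 0.1, adjusted p = 0.012), Gstm5 at 0.27 (SE 0.053, adjusted p = 0.0012) and Gstm2 at 0.2 (SE 0.064, adjusted p = 0.043), while Gsta4 was at 0.21, Gstt1 at 0.17 and Gstp1 at 0.14, none of these called. For cysteamine, none was called by limma, with 0.119% of all genes called, and 5 had an unadjusted p under 0.05. Gsta4 was at 0.34 (SE 0.096, adjusted p = 0.19), and Mgst1 at 0.37 (SE 0.085, adjusted p = 0.08). Calls for cysteamine thus differed between the controls, but the size of the Mgst1 rise did not. It was 0.37 with both, with an unadjusted limma p of 0.000673 against vehicle and 0.000111 against these compounds. An adjusted p also depends on the p-values of all other genes tested. The log2 fold changes of Gsta4, Gstm1, Gstp1 and Gsto1 were smaller with these compounds as control. Nicotinamide itself had 1 member called against vehicle, Gsta4 at 0.39 (SE 0.11, adjusted p = 0.019), with 10.4% of all genes called (2.82% higher). That call was lost without vehicle replicate 1 or 2, or nicotinamide replicate 2 or 3.

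**Figure D4:**
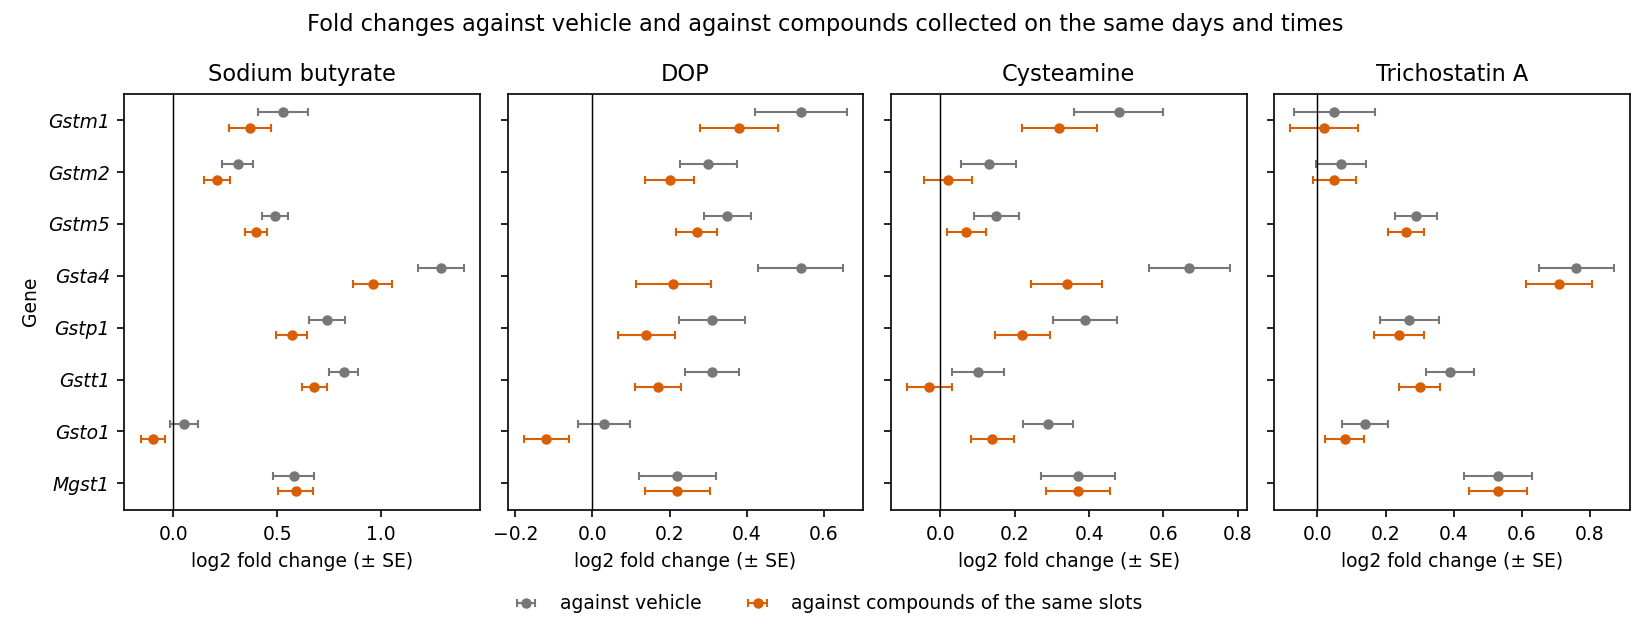
Log2 fold change with its SE (horizontal axes) of the 8 transferase genes tested under 4 compounds, against the STHdhQ111 vehicle control (grey) and against compounds collected on the same days and times (orange), which were nicotinamide and nortriptyline for the first 3 panels and haloperidol and fingolimod phosphate for trichostatin A. With sodium butyrate, Gsta4 stood at 1.29 against vehicle and 0.96 against the other control, and with DOP it stood at 0.54 and 0.21.

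In the same way, meclizine against haloperidol and fingolimod phosphate had 3 members called, all higher (28.8% of all genes, 14.8% higher), with Gsto1 at 0.65 (SE 0.058, adjusted p = 2.3e-11). Without Gstm1, pizotifen against the same compounds had 4 of 7 members called, 2 higher and 2 lower (17.3% of all genes), where 2 were called against vehicle. Gsto1 was at 0.22 (SE 0.058, adjusted p = 0.006) and Mgst1 at 0.25 (SE 0.085, adjusted p = 0.041). Loxapine against nicotinamide and nortriptyline had 5 of 7 called, 2 higher and 3 lower (22.8% of all genes), where 2 were called against vehicle. Gsto1 was at 0.19 (SE 0.058, adjusted p = 0.014) and Mgst1 at 0.27 (SE 0.085, adjusted p = 0.021). Mgst1 was thus called under both with this control and under neither with vehicle, though its log2 fold changes hardly differed. Against vehicle it was at 0.24 with pizotifen (SE 0.099, adjusted p = 0.087) and at 0.26 with loxapine (SE 0.099, adjusted p = 0.051). Gstm1, a description, was at -0.81 with pizotifen and -0.91 with loxapine. Cyproheptadine and DKI shared their full set of collection days and times with each other only, so this control was not used for them. Their replicates 2 and 3 were collected on the same days and at the same times as vehicle replicates 2 and 3.

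The 4 remaining compounds had no called member by limma. Nortriptyline and selisistat each had 1 member with an unadjusted p under 0.05, and haloperidol and fingolimod phosphate had none. Over all genes, 3.83% were called with nortriptyline, 0.515% with selisistat and 0.0597% with fingolimod phosphate. With haloperidol, 0% were called, and 397 genes had an unadjusted p under 0.05. Among these compounds' values, Gstp1 of selisistat replicate 2 stood apart, at 11.94 against 11.44 and 11.4 in its other replicates.

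Ordered by their condition means, most neighbouring conditions overlapped in their samples. For Gstm1, 1 of 15 neighbouring pairs did not overlap, with cysteamine, sodium butyrate and DOP above nicotinamide and all other conditions. For Gsto1 it was also 1 of 15, with meclizine and DKI above cyproheptadine and the rest. For Gsta4 it was 2 of 15, with sodium butyrate above trichostatin A, and with the STHdhQ111 vehicle control above pizotifen. Gstp1, Gstt1, Gstm5 and Mgst1 had 2 such pairs each and Gstm2 had 3.

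Over the 16 condition means, the highest correlations between members were those of Gstm1 and Gstm2 (0.967), Gsta4 and Gstp1 (0.943), and Gstm5 and Gstt1 (0.898). These were not separate pairs. Gsta4 also correlated with Gstt1 at 0.856, with Gstm5 at 0.772 and with Gstm1 at 0.74, and Mgst1 with Gstp1 at 0.728. The correlations of Gstm1 include its values under the Group A compounds, which chose the list. Gsto1 stood apart, at -0.469 with Gstm2 to 0.412 with Mgst1. These are descriptions over 16 points that share libraries and collection days. Over the 10721 genes averaging 5 or more, the patterns most like Gstm1 were those of Nek6 (0.975) and Mapre3 (0.962), and those most like Gstm2 were Mapre3 (0.971) and Aes (0.969). For Gsto1 they were Rcl1 (0.98) and Ddit3 (0.963), the latter a transcription factor of the integrated stress response. For Gsta4 they were Hoga1 (0.93) and Agpat2 (0.92), for Gstp1 Cdk2ap2 (0.935) and Dtd2 (0.935), and for Gstt1 Egfl7 (0.972) and Stard10 (0.963). Mcee (0.93) and Hmox2 (0.909) were closest to Gstm5, and Raet1e (0.919) and Tnfrsf9 (0.915) to Mgst1.

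Larger changes than those of any transferase were measured among genes that supply glutathione. These lists too were drawn up with earlier results of these data known. Of 7 genes of synthesis and precursor uptake, 4 rose in Group B and none fell, against 41% of all genes called, with a median log2 fold change of 0.57 against 0 over all genes tested. Slc7a11, which carries cystine into the cell, rose by 2.8 (SE 0.2, adjusted p = 6.2e-14), Cth, which makes cysteine, by 1.98 (SE 0.14, adjusted p = 2.4e-14), and Slc3a2, the partner chain of Slc7a11, by 1.72 (SE 0.13, adjusted p = 1.2e-13). Gclc, the catalytic subunit of the first step of glutathione synthesis, rose by 0.57 (SE 0.066, adjusted p = 7.3e-09). In Group A, 4 rose and none fell, against 32.8% of all genes called, with Slc7a11 at 1.6 (SE 0.19, adjusted p = 2.9e-08) and Cth and Slc3a2 at 0.68 each. In the direct comparison 4 of the 7 were lower in Group A than in Group B, where 41.3% of all genes were called. In STHdhQ7, 4 were higher than in STHdhQ111 and 1 was lower, where 55.8% of all genes were called. Both groups and STHdhQ7 share the STHdhQ111 vehicle samples as control.

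Export and breakdown were read from lists of their own. Of 8 exporters and mitochondrial carriers, 6 rose in Group B and none fell (41% of all genes called), led by Abcc4 at 0.95 (SE 0.082, adjusted p = 7.2e-12), a pump for conjugates and nucleotides. In Group A, 2 rose and 2 fell (32.8% of all genes called). Of 6 breakdown genes tested, Chac1, which cleaves glutathione inside the cell, rose by 1.96 in Group B (SE 0.12, adjusted p = 3.7e-15), by 1.59 in Group A (SE 0.12, adjusted p = 2.1e-12) and by 1.22 in STHdhQ7 (SE 0.14, adjusted p = 1.8e-09). In all, 2 breakdown genes rose and 1 fell in Group B (41% of all genes called), 3 rose and 1 fell in Group A (32.8%), and 2 were higher and none was lower in STHdhQ7 (55.8%).

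Of 8 regulators and classical NRF2 targets, 4 rose and 2 fell in Group B, where 41% of all genes were called. Hmox1, the inducible heme oxygenase, rose by 1.17 (SE 0.099, adjusted p = 5e-12), Srxn1 by 0.65 (SE 0.058, adjusted p = 1.2e-11), Mafg by 0.60 (SE 0.063, adjusted p = 7.5e-10) and Txnrd1 by 0.58 (SE 0.048, adjusted p = 2e-12). In Group A, 4 rose and 1 fell (32.8% of all genes called), with Srxn1 at 0.34 (SE 0.054, adjusted p = 5.7e-06) and Hmox1 at 0.32 (SE 0.093, adjusted p = 0.0078). Of 7 recycling enzymes and peroxidases tested, 2 rose and 2 fell in Group B (41% of all genes called), 1 rose and 1 fell in Group A (32.8%), and 3 were lower and none was higher in STHdhQ7 (55.8%), among them the glutaredoxin Glrx at -0.76 (SE 0.081, adjusted p = 2.2e-10).

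**Figure D5:**
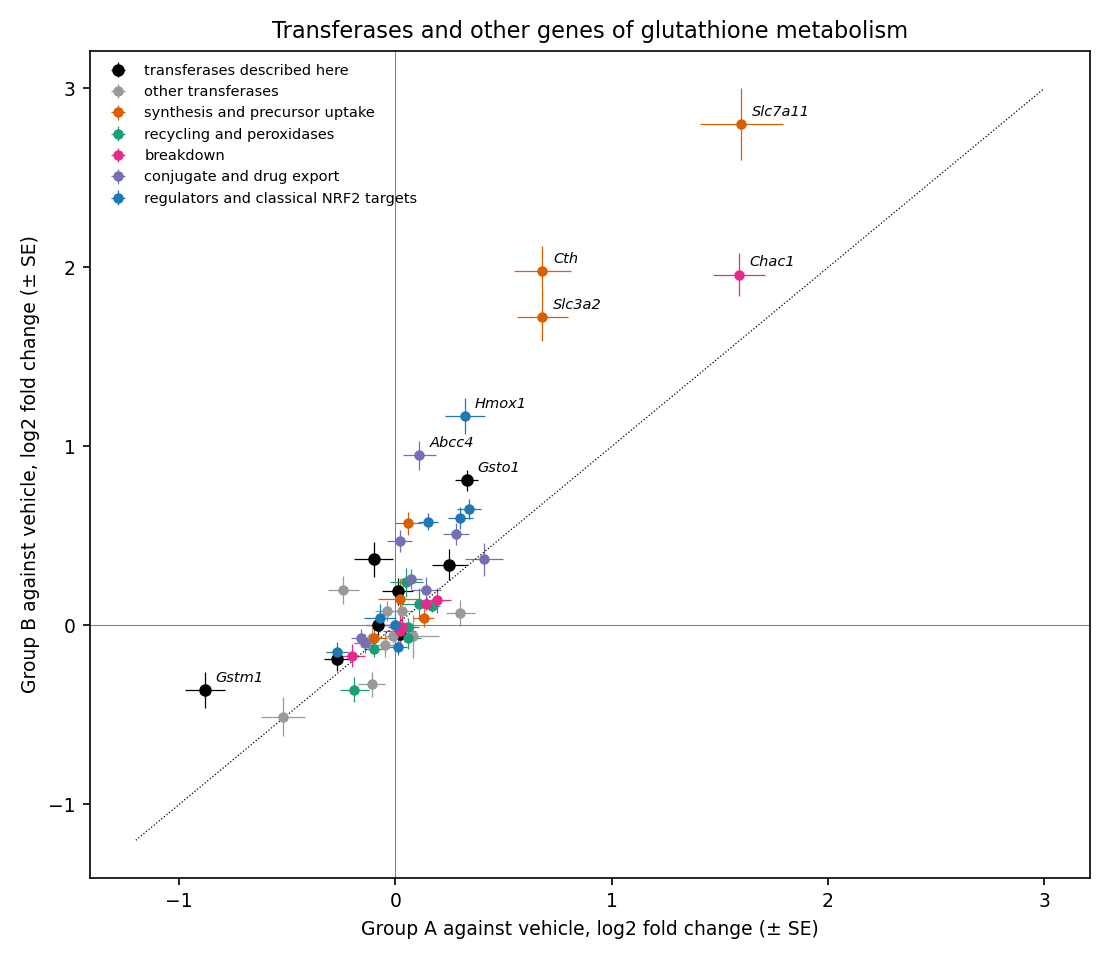
Log2 fold change with its SE against the STHdhQ111 vehicle control in Group A (horizontal axis, 9 samples) and in Group B (vertical axis, 6 samples) for the transferases and for other genes of glutathione metabolism, by list. Both axes use the same 3 vehicle samples, and the dotted line marks equal values. Slc7a11 lies at 1.6 and 2.8, Gsto1 at 0.33 and 0.81, and Gstm1 at -0.88 and -0.36.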

How the data were processed

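RNA-Seq of 48 samples was analysed. Trimmomatic 0.36 was used by the authors to trim single-end reads of 50 bases, RSEM gave abundances on the GRCm38.p5 transcriptome (GENCODE M12), and the submitters' processing notes also name DESeq2. The deposited file, made by the authors, holds 1 normalized abundance per gene and sample on a log2 scale for 27281 genes. The transformation is not given in the sources used here, and values of weakly expressed genes hardly vary, so their fold changes may be understated.

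Samples were grouped by their labels. All 48 were fitted in 1 linear model with limma 3.58.1 (R 4.3.3, variance trend on mean abundance) with a term for condition and, as in the study, for collection day, which left 30 residual degrees of freedom. No pseudocount was needed. Genes with a symbol and a mean of at least 1 were tested, 13409 in all, and two-sided p-values were adjusted by Benjamini-Hochberg within each comparison. The procedure was tested on simulated data. Levels per kilobase subtracted the log2 exon length. Likeness was Pearson's r over condition means with collection day removed, over genes with a mean of at least 5.

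The members and lists were chosen with earlier results of these data known, so no call here is independent support for a pattern. Named were all 10 members, other transferases and up to 4 genes per glutathione list by size of change among those called, and the 2 genes most like each member tested. The alternatives were no minimum mean, a minimum of 5, no collection day, replicate number in its place, a further term for time of collection, a fit of only those samples under comparison, median centring, no variance trend, leaving out each sample, and, chosen after seeing the data, controls collected on the same days and times.

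Replicate numbers equal collection days except for replicate 1 of cyproheptadine and DKI. Deviations from condition means correlated at -0.055 on average between samples of the same day and at 0.0279 between samples of different days.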

Additional observations from a re-analysis of the deposited data

How the results depend on the processing

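No member's fold change that was called reversed its direction under any alternative. The counts of called members in STHdhQ7, Group A, Group B, Group A against Group B and the single compounds stayed within 1.5 times under every alternative that kept the vehicle control. Counts here include Gstm1 under Group A compounds, which chose the list, so they describe the processing only. Without those pairs, the main counts were 3 of 7 in Group A, 3 of 7 between the groups and 38 of 109 for single compounds. For DKI against meclizine, 0 members were called, and 1 was called without the collection day term. Leaving out 1 sample at a time gave 0 to 2 there, with calls appearing without meclizine replicate 1, meclizine replicate 2 or DKI replicate 2. Over the same omissions the counts ran from 3 to 5 in STHdhQ7, 3 to 4 in Group A, 4 to 6 in Group B, 4 to 5 between the groups and 33 to 49 of 112 for single compounds.

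With the replicate number as a block in place of collection day, the counts were 4 in STHdhQ7, 4 in Group A, 6 in Group B, 4 between the groups, 0 between DKI and meclizine, and 43 of 112 for single compounds against Q111 vehicle, so the replicate block changed no count beyond 1.5 times. These counts again include Gstm1 under Group A compounds. Collection day is the pairing that the labels give.

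Depth is unknown. Gstm4 and Gstt2 lie at the floor, so no difference was detectable in them. With controls of the same collection days and times, leaving out Gstm1 under Group A compounds, called members went from 5 to 0 with cysteamine, 6 to 3 with DOP, 2 to 5 with loxapine and 2 to 4 with pizotifen, and stayed at 7 with sodium butyrate, 5 with trichostatin A and 3 with meclizine. In all, 8 calls were lost and 5 gained. These controls had 6 samples each, where vehicle had 3, and adjusted p-values depend on all genes tested. Loxapine gained Gsta4 (-0.31), Gstt1 (-0.19) and Mgst1 (0.27), and pizotifen gained Gstt1 (-0.19) and Mgst1 (0.25). Gstm1 with loxapine moved from -0.75 to -0.91. The cause was not tested.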

Other observations

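Of 11 other transferase genes tested, 6 were higher and none lower with sodium butyrate against vehicle, where 37.5% of all genes were called. Gstm7, a further mu class gene, differed by 0.92 on the log2 scale (SE 0.087, limma adjusted p = 1.8e-10), Ptges, the inducible prostaglandin E synthase of the membrane-bound family, by 0.81 (SE 0.078, limma adjusted p = 3.5e-10), Gstt3 of the theta class by 0.42 (SE 0.075, limma adjusted p = 2.9e-05) and Mgst2 by 0.32 (SE 0.089, limma adjusted p = 0.004).

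In STHdhQ7 against STHdhQ111, 4 of these 11 genes were called, 1 higher and 3 lower, where 55.8% of all genes were called. Ptges was lower by 1.44 (log2 fold change -1.44, SE 0.078, limma adjusted p = 1.1e-18) and Mgst2 was lower too (-1.19, SE 0.089, limma adjusted p = 1.8e-14), while Gstm7 was higher (0.54, SE 0.087, limma adjusted p = 1.4e-06). In Group A, 1 of the 11 was higher and 2 were lower (32.8% of all genes called), and in Group B 1 was higher and 2 were lower (41%). Mgst2 was 0.24 below vehicle in Group A (log2 fold change -0.24, SE 0.073, limma adjusted p = 0.01) and 0.2 above it in Group B (SE 0.078, limma adjusted p = 0.033). The difference between the groups was -0.44 (SE 0.058, limma adjusted p = 6.4e-08). Mgst3 was lower in both, at -0.52 (SE 0.1, limma adjusted p = 0.00012) and -0.51 (SE 0.11, limma adjusted p = 2e-04).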
